A study of Mus musculus with 6 samples.

Results

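The genes described here copy the genome and supply the deoxynucleotides for it. They were chosen by gene symbol from a list of 53, and all 53 were found among the 18128 genes with any count. The list was made with earlier results of these data known, so shares of it called are descriptions. The RNA came from Neuro2a cells, a mouse neuroblastoma line used as a neuron-like model and labelled wild type. The cells carried an adenovirus with a short hairpin RNA against Fam172a (shFam172a, 3 libraries) or one with a control hairpin (shCtrl, 3 libraries). Both groups were harvested 48 h after the virus was added, so both were infected cells of 1 line, and no uninfected cells were compared. The labels do not say whether the libraries of a group came from separate infections, so the p-values measure only the spread between these libraries, which may be technical.

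Chromosomes are copied once per cell cycle. The origin recognition complex (ORC), Cdc6 and Cdt1 load the ring-shaped MCM helicase onto origins in G1, and the kinase Cdc7 with its activator Dbf4 then starts it together with Cdc45 and the GINS complex. Polymerase alpha and primase lay down primers, polymerases epsilon and delta extend them on the sliding clamp Pcna, and RPA coats the exposed single strands. Many of these genes are transcribed in late G1 and S phase under E2F transcription factors, so in proliferating lines their RNA follows the share of cells in those phases as well as the amount per cell. In bulk RNA, fewer cells in a phase and less RNA per cell cannot be told apart.

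The libraries were uneven in depth, at 21690467 to 23409319 gene counts in shFam172a and 11250312 to 12820531 in shCtrl, and depth and group cannot be told apart. Levels are given as counts scaled to library size (CPM, TMM scaling), and log2 fold changes are shFam172a over shCtrl with their standard error (SE). A gene was called at an adjusted p under 0.05 (edgeR's quasi-likelihood test, Benjamini-Hochberg adjustment over 12820 genes). Fam172a stood at 9.22, 8.28 and 9.22 CPM in shFam172a and at 18.6, 19.3 and 19.5 CPM in shCtrl (log2 fold change -1.10 ± 0.092, adjusted p = 2.4e-12). All 12 sympathoadrenal and neuronal markers checked were detected, with summed levels of 2740 to 2800 CPM in shFam172a and 2690 to 2730 CPM in shCtrl. Of these markers, 6 were called higher and 2 lower. Fibroblast markers summed to 9.84 to 12.2 CPM in shFam172a and 11.4 to 12.9 CPM in shCtrl, with 4 of 7 tested and 0 called. Macrophage markers summed to 1.11 to 1.16 CPM in shFam172a and 0.234 to 0.943 CPM in shCtrl, with Ptprc and Itgam at 0 counts throughout and Cd68, the 1 of 6 tested, called higher. Glial markers summed to 28.2 to 33.4 CPM in shFam172a and 26.9 to 29.1 CPM in shCtrl, with 3 of 7 tested, 0 called, and Aqp4 and Olig2 at 0. Endothelial or epithelial markers summed to 15.2 to 16.6 CPM in shFam172a and 14.6 to 15.0 CPM in shCtrl, with 2 of 6 tested and 0 called. Read pairs in no gene made up 17.2% to 17.9% in shFam172a and 16.4% to 16.6% in shCtrl. The part of these shares and markers in the results was not tested. With every library thinned to the smallest total, 31 of the 53 replication genes were called lower. In that fit, 4136 of all 12341 genes tested were called in either direction. Thinning evens the totals only, and group still coincides with whatever made the libraries differ in depth.

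Replication genes were lower in the knockdown, broadly and by small amounts. All 53 passed the filter on low counts, 35 were called lower in shFam172a (66.0%), 0 were called higher and 18 were not called. None was higher at an unadjusted p under 0.05 either, and DESeq2 and limma-voom also called 0 higher. Over all genes tested, 18.6% were called lower and 17.5% higher, 36.1% in all. Among genes at least as abundant as the lowest of the 53, where calls are easier to make, 24.3% were called lower. The median log2 fold change was -0.19 for the replication genes and 0.00 for all genes tested, with quartiles of -0.28 and -0.08 against -0.13 and 0.14. The sign was negative for 52 of the 53, against 50.1% of all genes tested, and Rpa2 was the exception. All 3 shFam172a libraries lay below all 3 shCtrl libraries for 38 of the 53 (71.7%), against 23.5% of all genes tested. These included 4 genes that were not called, Mcm5, Mcm7, Cdc45 and Pole2, and Gins4 was called although its groups overlapped. A difference of at least 1.5-fold was reached by 1 gene, Rrm2.

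**Figure D1:**
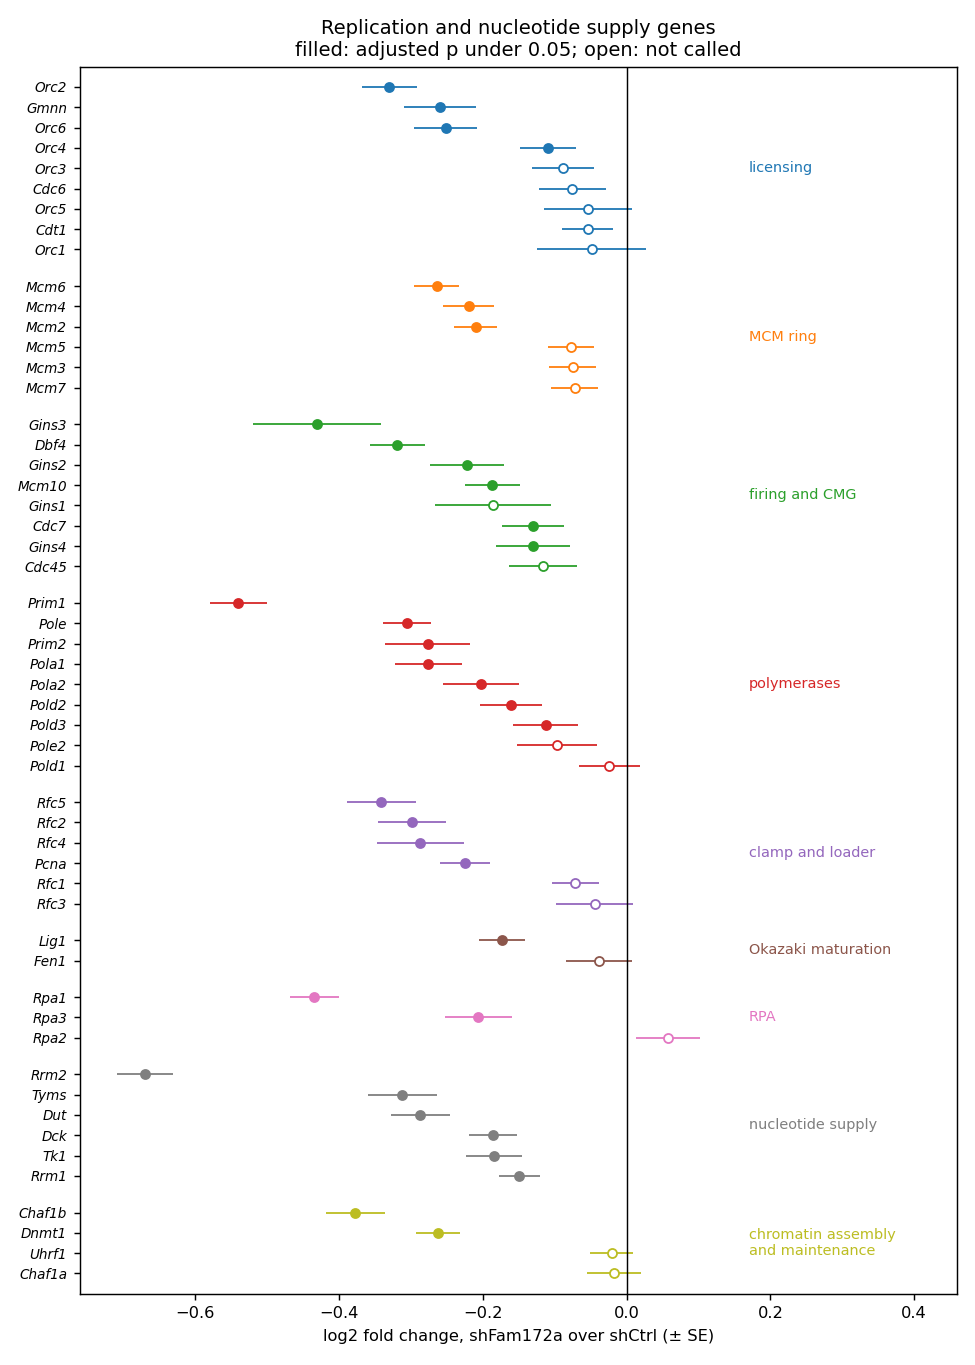
Log2 fold change of each of the 53 genes (x axis, shFam172a over shCtrl, ± SE), in blocks by role. Filled circles are the 35 genes called lower and open circles the 18 not called, and Rpa2 is the sole gene right of the zero line.

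**Figure D2:**
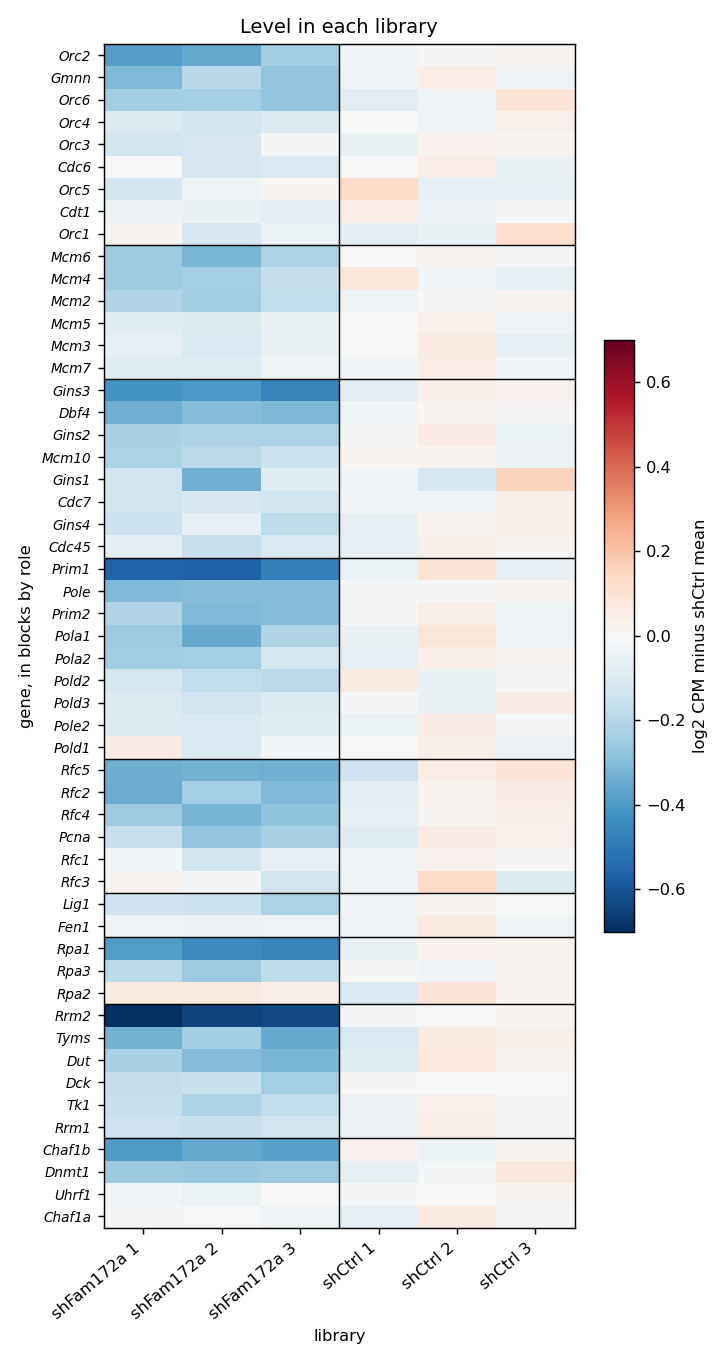
Level of each gene in each of the 6 libraries (columns) as log2 CPM minus the mean of the shCtrl libraries, with rows in blocks by role. The shFam172a columns are blue for most rows, and the library medians over the 53 genes were -0.16, -0.19 and -0.17 in shFam172a and -0.03, 0.03 and 0.01 in shCtrl.

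The shift was alike in the libraries of a group. Taking each gene relative to its shCtrl mean, the median over the 53 genes was -0.16, -0.19 and -0.17 on the log2 scale in the shFam172a libraries and -0.03, 0.03 and 0.01 in the shCtrl libraries. No library of either group carried the difference alone. Over the 53 genes, the log2 fold change had a Spearman correlation of 0.01 with mean CPM, of -0.01 with exon length and of 0.25 with GC content of the transcript. Over all genes tested, these were -0.07, 0.14 and 0.13, given as descriptions, since genes of 1 set of libraries are not independent.

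**Figure D3:**
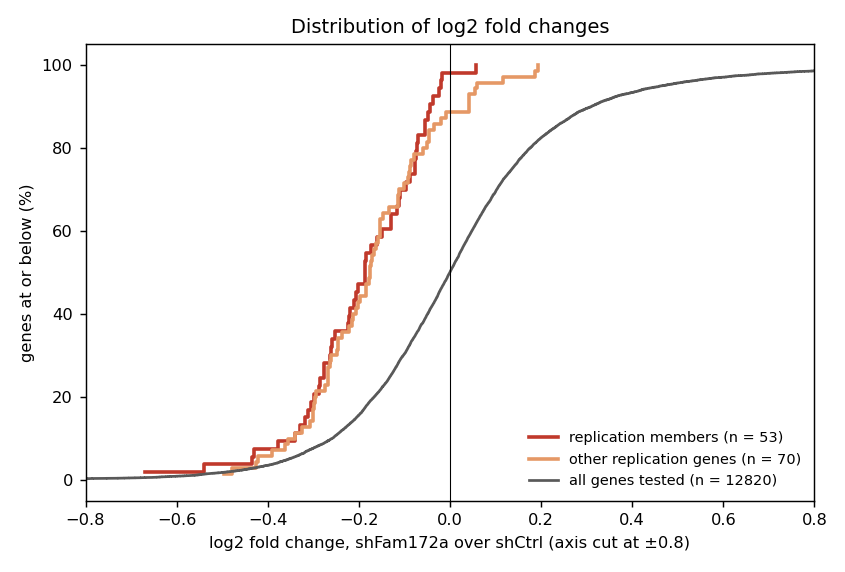
Cumulative share of genes (y axis, %) at or below each log2 fold change (x axis, shFam172a over shCtrl) for the 53 genes, 70 other replication genes and all 12820 genes tested. Over most of the axis the curves of both replication lists lie left of that of all genes, with medians of -0.19 and -0.17 against 0.00.

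Promoter sequence was compared because 52 of the 53 genes had a negative log2 fold change and E2F factors are their best-known regulators. RefSeq promoter windows (GRCm38.p6, 250 bases before to 50 after a start) were found for 45 of the 53. Each was searched on both strands for TTTCCCGC, TTTCGCGC, TTTGGCGC and TTTGCCGC, each of them a form of the E2F consensus. Only these exact letters were counted, so a window without a match may still hold a related site. The window of Pola2, for example, had no match but holds TTTGGCGG. These letters can overlap one another, since a match on each strand may share bases. They stood in a window of 17 of the 45 genes (37.8%), against 4.75% of the 9749 tested genes with a window. Over all 27025 genes with a window the share was 2.605%. In each of these shares a gene counted if any of its windows held a match. Counted by single windows, the share was 2.27% of all 32851. The windows of 6 genes are shown 5′ to 3′ with the matches in capitals, the first pair for the largest falls, the next for called genes with matches, and the last for genes with matches that were not called.
Rrm2, chr12:24708004-24708303, plus strand: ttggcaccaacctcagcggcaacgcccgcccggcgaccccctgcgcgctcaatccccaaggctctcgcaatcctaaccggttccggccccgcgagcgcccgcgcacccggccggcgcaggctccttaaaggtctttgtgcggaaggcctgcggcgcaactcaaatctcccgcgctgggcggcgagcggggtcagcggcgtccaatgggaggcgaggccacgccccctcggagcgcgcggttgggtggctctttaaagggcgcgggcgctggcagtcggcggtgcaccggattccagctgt
Prim1, chr10:128014965-128015264, plus strand: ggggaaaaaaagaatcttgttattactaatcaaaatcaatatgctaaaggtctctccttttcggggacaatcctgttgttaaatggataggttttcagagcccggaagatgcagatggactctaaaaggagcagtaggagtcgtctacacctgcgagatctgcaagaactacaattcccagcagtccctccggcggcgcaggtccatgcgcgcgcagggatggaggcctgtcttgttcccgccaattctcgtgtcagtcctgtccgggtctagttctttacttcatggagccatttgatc
Mcm6, chr1:128359656-128359955, minus strand: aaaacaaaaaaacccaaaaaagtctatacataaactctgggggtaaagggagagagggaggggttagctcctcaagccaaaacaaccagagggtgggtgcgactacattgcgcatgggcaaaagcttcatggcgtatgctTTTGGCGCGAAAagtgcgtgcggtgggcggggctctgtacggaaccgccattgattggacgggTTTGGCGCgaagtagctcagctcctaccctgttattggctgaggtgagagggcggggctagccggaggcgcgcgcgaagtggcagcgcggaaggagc
Gins3, chr8:95633309-95633608, plus strand: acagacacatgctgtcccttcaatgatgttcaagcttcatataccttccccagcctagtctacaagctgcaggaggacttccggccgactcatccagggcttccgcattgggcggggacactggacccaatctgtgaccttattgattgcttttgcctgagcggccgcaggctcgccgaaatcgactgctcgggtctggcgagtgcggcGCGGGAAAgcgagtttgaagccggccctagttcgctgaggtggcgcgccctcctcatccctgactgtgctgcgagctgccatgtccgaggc
Mcm5, chr8:75109259-75109558, plus strand: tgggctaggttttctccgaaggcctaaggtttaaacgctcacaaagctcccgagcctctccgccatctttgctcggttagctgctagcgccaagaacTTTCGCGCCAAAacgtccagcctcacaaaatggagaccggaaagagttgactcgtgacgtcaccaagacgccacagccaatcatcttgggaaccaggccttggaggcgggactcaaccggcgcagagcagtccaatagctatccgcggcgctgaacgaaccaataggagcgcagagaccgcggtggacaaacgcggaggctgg
Cdt1, chr8:122567765-122568064, plus strand: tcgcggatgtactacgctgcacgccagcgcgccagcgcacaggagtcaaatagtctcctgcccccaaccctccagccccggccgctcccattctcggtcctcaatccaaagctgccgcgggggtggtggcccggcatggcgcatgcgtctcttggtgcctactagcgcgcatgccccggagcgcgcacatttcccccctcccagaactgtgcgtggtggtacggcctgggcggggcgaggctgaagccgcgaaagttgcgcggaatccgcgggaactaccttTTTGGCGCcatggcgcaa

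Within the set, given here as a description with no test, calls and fold changes were set out by the presence of the E2F-type letters. Of the 17 with the letters, 6 were called lower, with a median log2 fold change of -0.08 over all 17. Of the 28 without, 22 were called lower, with a median of -0.20. Outside the set, 119 of 446 genes with the letters were called lower (26.7%), against 1713 of 9258 without (18.5%). Rrm2 and Prim1, with the largest falls, had no match in the windows above. The window of Prim1 holds GTTCCCGC, which differs from TTTCCCGC in its first letter only, so a related site may be present. Mcm5 had matches 153 and 149 bases before the start, and Cdt1 had 1 at 33 bases after it. Mcm6 held 3 matches, beginning 110, 106 and 47 bases before the start, and Gins3 held 1, at 41 bases before it. GC content of the windows was close, at a median of 60.0% with the letters and 63.0% without. A CCAAT box (CCAAT) was in a window of 26 of the 45 genes (57.8%, against 43.4% of tested genes) and the cell cycle homology letters TTTGAA in 9 of the 45, against 13.8% of tested genes. With and without CCAAT the median log2 fold change was -0.17 and -0.17, and 16 of 26 and 12 of 19 genes were called lower. With and without TTTGAA the median was -0.19 and -0.16, and 7 of 9 and 21 of 36 genes were called lower. A match is a description of the letters and says nothing of whether a factor was bound. The lack of a match means only that these exact letters were absent. Mcm4, Gmnn, Gins1, Gins2, Gins4, Prim2, Pole and Rfc2 had no window in the table used.

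**Figure D4:**
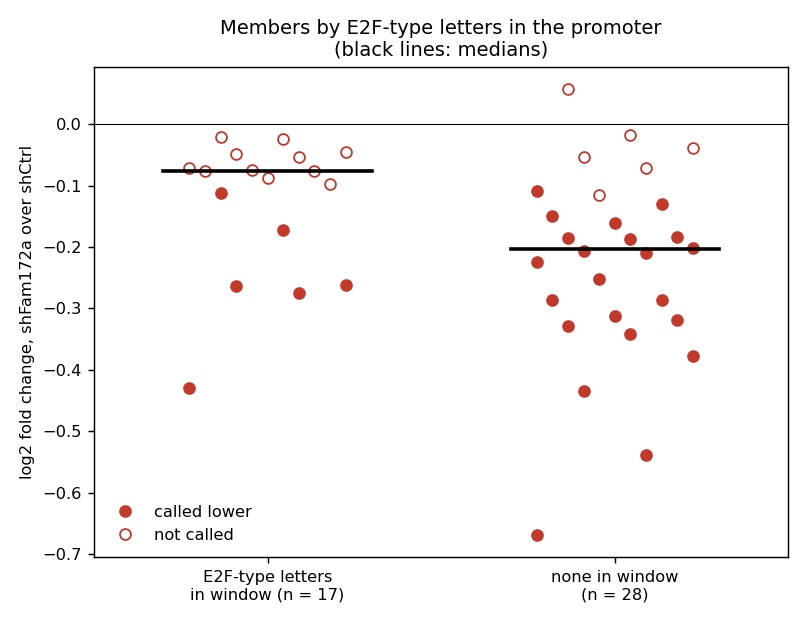
Log2 fold change (y axis, shFam172a over shCtrl) of the 45 genes with a promoter window, split by whether a window holds E2F-type letters (17 genes) or not (28 genes). Filled circles were called lower, open circles were not called, and black lines are medians, at -0.08 and -0.20.

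Nucleotide supply was the role in which every gene fell, 6 of 6. Rrm2, the small subunit of ribonucleotide reductase, which makes deoxynucleotides and whose protein is degraded outside S phase, stood at 77.5, 82.4 and 83.4 CPM in shFam172a and at 128, 129 and 130.1 CPM in shCtrl. The groups were far apart and each was tight, and the log2 fold change of -0.67 ± 0.039 (adjusted p = 5.9e-17) was the largest of the 53. Its partner Rrm1, the large subunit, which is held more evenly through the cycle, stood at 398, 395 and 399.7 CPM in shFam172a and at 428, 455 and 439 CPM in shCtrl (-0.15 ± 0.028, adjusted p = 6.1e-05). The ratio of Rrm2 to Rrm1 CPM was therefore lower in the knockdown, at 0.195, 0.209 and 0.209 in shFam172a and 0.30, 0.283 and 0.296 in shCtrl. Such within-library ratios do not depend on library scaling. They are uncorrected for gene length, so they can be compared between libraries but not read as stoichiometry. Per kilobase of exon, Rrm1 stood at 99.5 ± 0.558 and Rrm2 at 37.0 ± 1.43 CPM in shFam172a, and at 110.0 ± 3.37 and 58.9 ± 0.398 CPM in shCtrl (SD, n = 3).

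Among the thymidylate genes, Tyms, thymidylate synthase, stood at 57.9, 61.4 and 56.9 CPM in shFam172a and at 67.7, 76.1 and 74.9 CPM in shCtrl (-0.31 ± 0.048, adjusted p = 2.2e-06). Dut, the dUTPase that keeps uracil out of DNA and yields the substrate of Tyms, was at -0.29 ± 0.041 (adjusted p = 5.4e-07). Of the salvage kinases, Tk1, for thymidine, was at -0.18 ± 0.039 (adjusted p = 2.4e-04), and Dck, for deoxycytidine, at -0.19 ± 0.033 (adjusted p = 2.6e-05). For all 6 genes the groups did not overlap.

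In the MCM ring, 3 subunits were called lower and 3 lay past the threshold, all 6 with negative log2 fold changes. Mcm2, Mcm4 and Mcm6 fell, by 0.21, 0.22 and 0.26 on the log2 scale, whereas Mcm3, Mcm5 and Mcm7 were at -0.08, -0.08 and -0.07, with adjusted p = 0.072, 0.057 and 0.078 in edgeR's test. Mcm6 stood at 228, 217 and 232 CPM in shFam172a and at 271, 274 and 269 CPM in shCtrl (adjusted p = 8.9e-09). Mcm7 stood at 188, 187 and 194 CPM in shFam172a and at 195, 207 and 196 CPM in shCtrl, so even here the groups did not overlap, though the gap was narrow. All 6 subunits sit in the ring once each, and 5 of the 6 had no overlap between groups, Mcm3 being the exception. The ratio of Mcm6 to Mcm7 CPM was 1.22, 1.16 and 1.2 in shFam172a and 1.39, 1.33 and 1.37 in shCtrl. Per kilobase of exon the 6 subunits ranged from 41.2 (Mcm4) to 76.2 CPM (Mcm2) in shFam172a and from 48.0 (Mcm4) to 88.1 CPM (Mcm2) in shCtrl. Mcm7 is less certain, since 26.0% of the 50-base words of its transcript also occur in the distant gene Gm5487 and its exons overlap Ap4m1 and Cops6.

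**Figure D5:**
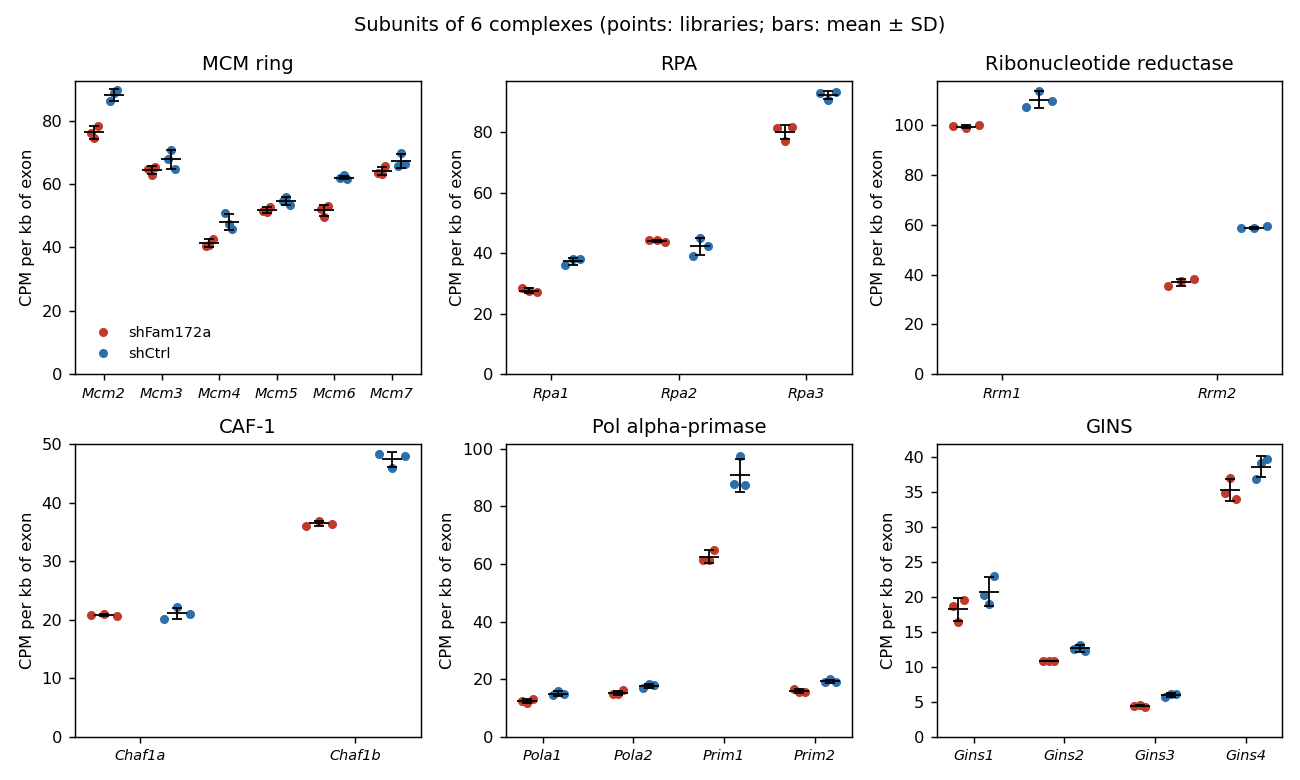
Level of each subunit in 6 complexes as CPM per kilobase of exon (y axis, from 0). Points are libraries, red for shFam172a and blue for shCtrl, and bars are mean ± SD (n = 3). Rrm2, Chaf1b, Prim1 and Rpa1 separate widely between groups, while Chaf1a and Rpa2 overlap.

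Of the licensing genes, 4 of 9 fell and 5 were not called. Orc2, a core ORC subunit, was at 101, 103 and 111 CPM in shFam172a and 129.6, 133 and 134 CPM in shCtrl (-0.33 ± 0.039, adjusted p = 1.0e-08). Orc6, the smallest subunit, was at -0.25 ± 0.044 (adjusted p = 1.5e-05), and Orc4 at -0.11 ± 0.039 (adjusted p = 0.024). Orc1, an ATPase subunit needed to load MCM, was not called, at 22.01, 19.99 and 20.99 CPM in shFam172a and 20.58, 20.95 and 23.65 CPM in shCtrl (-0.05 ± 0.076, adjusted p = 0.66). Its sign turned without shCtrl replicate 3 (0.02). The loaders Cdc6 (-0.08 ± 0.047, adjusted p = 0.21) and Cdt1 (-0.05 ± 0.036, adjusted p = 0.25) were not called either, nor were Orc3 (-0.09 ± 0.043, adjusted p = 0.11) and Orc5 (-0.05 ± 0.061, adjusted p = 0.53), the last with a sign that turned under 4 of 16 other settings. Geminin (Gmnn), which binds Cdt1 and blocks a second round of licensing, fell to 46.29, 50.05 and 47.25 CPM in shFam172a, against 56.2, 59.4 and 56.2 CPM in shCtrl (-0.26 ± 0.050, adjusted p = 7.2e-05). Exons of 15 of the 53 genes overlap another gene on the opposite strand, and since the strand setting of the counting is not given in the sources used here, their values are less certain. These are Orc1, Orc2, Orc4, Orc6, Mcm7, Cdc45, Gins2, Pole, Rfc2, Rfc4, Rfc5, Fen1, Lig1, Tk1 and Chaf1a. Of the 15, 10 were called lower, as were 25 of the other 38.

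Genes of origin firing fell in 6 of 8 cases. Dbf4, the activator whose supply limits the Cdc7 kinase, stood at 84.8, 86.6 and 86.0 CPM in shFam172a and at 105, 108 and 108 CPM in shCtrl (-0.32 ± 0.039, adjusted p = 1.9e-08), while Cdc7 itself was at -0.13 ± 0.043 (adjusted p = 0.016). Of the GINS subunits, Gins3 had the largest fold change, at 12.1, 12.3 and 11.7 CPM in shFam172a and 15.4, 16.8 and 16.6 CPM in shCtrl (-0.43 ± 0.089, adjusted p = 1.8e-04). It was also the least abundant of the 53, with 180 counts or more in each library. Gins2 was at -0.22 ± 0.051 (adjusted p = 7.3e-04). Gins4 was at -0.13 ± 0.051 (adjusted p = 0.046), with overlapping groups and a call lost under 13 of 16 other settings. Gins1 was at -0.19 ± 0.081 (adjusted p = 0.071), also with overlapping groups. Mcm10, a scaffold for the active helicase, was at -0.19 ± 0.039 (adjusted p = 1.8e-04). Cdc45, the helicase cofactor, lay just past the threshold, at 59.5, 56.0 and 58.2 CPM in shFam172a and 60.1, 64.5 and 63.3 CPM in shCtrl (-0.12 ± 0.047, adjusted p = 0.053).

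Polymerases and primase fell in 7 of 9 cases, with the largest fold change in the catalytic subunit of primase. Prim1 stood at 97.8, 97.4 and 103 CPM in shFam172a and at 139.6, 155 and 139 CPM in shCtrl (-0.54 ± 0.040, adjusted p = 1.1e-13), with a clear gap between the groups. The other subunits of its complex also fell: Prim2 was at -0.28 ± 0.059, Pola1, the catalytic subunit of polymerase alpha, at -0.28 ± 0.047, and Pola2 at -0.20 ± 0.053, with adjusted p of 0.0025 or less. The ratio of Prim1 to Prim2 CPM was 2.97, 3.16 and 3.35 in shFam172a and 3.70, 3.94 and 3.72 in shCtrl.

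Of the extending polymerases, the catalytic subunit of epsilon fell and that of delta was not called. Pole, the catalytic subunit of the leading-strand polymerase epsilon, stood at 125, 125 and 125 CPM in shFam172a and at 154, 153 and 156 CPM in shCtrl (-0.30 ± 0.034, adjusted p = 2.5e-09), with Pole2 at -0.10 ± 0.055 (adjusted p = 0.18). Pold1, its counterpart in the lagging-strand polymerase delta, overlapped between groups, at 105, 93.9 and 99.6 CPM in shFam172a and 101, 104 and 98.1 CPM in shCtrl (-0.02 ± 0.042, adjusted p = 0.70). The accessory subunits of polymerase delta were lower, Pold2 at -0.16 ± 0.043 (adjusted p = 0.0034) and Pold3 at -0.11 ± 0.045 (adjusted p = 0.047), the last lost under 15 of 16 other settings. The difference between Pole and Pold1 was not tested.

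Of the clamp and its loader, Pcna and 3 of 5 RFC subunits fell. Pcna, which also recruits many of the proteins named here, stood at 210.4, 194 and 200.4 CPM in shFam172a and at 221, 245 and 241 CPM in shCtrl (-0.22 ± 0.035, adjusted p = 2.5e-06), with 31.8% of its 50-base words also in the pseudogene Pcna-ps2. Rfc5 had the largest fold change of the loader, at 62.0, 62.4 and 62.2 CPM in shFam172a and 71.1, 81.4 and 83.8 CPM in shCtrl (-0.34 ± 0.048, adjusted p = 4.5e-07), followed by Rfc2 (-0.30 ± 0.047) and Rfc4 (-0.29 ± 0.061). Rfc1, the large subunit, was at -0.07 ± 0.033 (adjusted p = 0.088). Rfc3 overlapped between groups, at 61.7, 60.2 and 55.1 CPM in shFam172a and 59.1, 66.5 and 56.5 CPM in shCtrl (-0.04 ± 0.053, adjusted p = 0.55), and its sign turned under 4 of 16 other settings.

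Okazaki fragment maturation and single-strand binding were split between fallen and uncalled genes. Lig1, the ligase that seals Okazaki fragments, stood at 196, 195 and 185 CPM in shFam172a and at 214, 219 and 217 CPM in shCtrl (-0.17 ± 0.032, adjusted p = 3.1e-05). Fen1, the flap nuclease that acts just before it, was at 61.1, 60.8 and 61.1 CPM in shFam172a and 61.0, 65.4 and 61.2 CPM in shCtrl (-0.04 ± 0.046, adjusted p = 0.56), with overlapping groups.

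In RPA, Rpa1 and Rpa3 fell and Rpa2 was not called. Rpa1, the large DNA-binding subunit, stood at 146, 141 and 139 CPM in shFam172a and at 185, 196 and 195 CPM in shCtrl (-0.43 ± 0.034, adjusted p = 3.3e-13). Rpa3, the smallest subunit, was at -0.21 ± 0.047 (adjusted p = 6.2e-04). Rpa2, the subunit that checkpoint kinases phosphorylate, stood at 80.3, 80.2 and 79.0 CPM in shFam172a and at 71.2, 81.6 and 77.2 CPM in shCtrl (0.06 ± 0.045, adjusted p = 0.33). The ratio of Rpa1 to Rpa2 CPM was 1.82, 1.76 and 1.76 in shFam172a and 2.60, 2.40 and 2.53 in shCtrl, a log2 difference of -0.49, so the groups were clearly separate. An exact permutation test over 3 and 3 libraries, two-sided, gave p = 0.10, the smallest it can give.

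Of the chromatin assembly and maintenance genes, 2 fell and 2 were not called. Chaf1b, the middle subunit of the histone chaperone CAF-1, stood at 70.5, 72.3 and 71.2 CPM in shFam172a and at 94.5, 89.9 and 93.7 CPM in shCtrl (-0.38 ± 0.041, adjusted p = 2.0e-09). Chaf1a, the large subunit of the same complex, was at 116, 117 and 114 CPM in shFam172a and 112, 122 and 116 CPM in shCtrl (-0.02 ± 0.038, adjusted p = 0.76). Dnmt1, the methyltransferase that copies DNA methylation, fell to 339, 337 and 339.6 CPM in shFam172a, against 387, 401 and 428 CPM in shCtrl (-0.26 ± 0.031, adjusted p = 9.9e-09). Uhrf1, which brings Dnmt1 to newly copied DNA, was at -0.02 ± 0.030 (adjusted p = 0.63), with 18.9% of its 50-base words also in other genes, among them Gm5648.

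The ratios given above are read against those of other gene pairs. Across 11 complexes with 39 of the genes, 62 pairs of subunits were compared by the ratio of their CPM in each library, and in 35 pairs (56.5%) the ratios did not overlap between groups. That share was 53.9% over all pairs of tested genes at least as abundant as the lowest of the 53, and 41.5% over all pairs of tested genes with counts in every library. The share within complexes was thus near that of other pairs of like abundance, and the count is not particular to these complexes. The 35 pairs held 10 of 15 in the MCM ring, 7 of 15 in ORC, 6 of 10 in RFC, 3 of 3 in RPA and 0 of 3 in polymerase delta. Pairs of 1 complex share genes, so these counts are not independent, and no single pair can reach a p below 0.10 in this design.

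Most other replication and precursor genes were also called lower. A further 71 genes covered forks, clamp loading and unloading, primer removal and topology, checkpoints, histone chaperones and nucleotide enzymes. Of these, 70 were tested, 47 were called lower, 2 higher and 21 were not called, with a median of -0.17. Those called are read against the 18.6% and 17.5% of all genes called in each direction. The further genes were also chosen with earlier results of these data known. Histone chaperones fell in 6 of 6, nucleotide and precursor enzymes in 23 of 30 and checkpoint genes in 5 of 8. Primer removal and topology genes fell in 4 of 7, and polymerase and fork accessory genes in 7 of 14. Clamp loading and unloading genes fell in 2 of 5, Chtf18 and Pclaf.

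Large falls among them included genes close to those above. Dna2, a nuclease and helicase that trims long flaps, was at 54.5, 58.2 and 57.1 CPM in shFam172a and 80.0, 79.2 and 80.4 CPM in shCtrl (-0.50 ± 0.044, adjusted p = 1.6e-11). Pclaf, a Pcna-binding protein listed under its older symbol 2810417H13Rik, was at 108, 96.6 and 98.7 CPM in shFam172a and 133, 147 and 142 CPM in shCtrl (-0.48 ± 0.042, adjusted p = 7.0e-12). Impdh2, which starts guanine nucleotide synthesis, was at -0.42 ± 0.039 (adjusted p = 3.4e-11), with 73.9% of its 50-base words also in the pseudogene Impdh2-ps.

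The genes that were called higher were Atr and Impdh1. Atr, the kinase that answers stalled forks, stood at 124, 121 and 126 CPM in shFam172a and at 111, 107 and 106 CPM in shCtrl (0.19 ± 0.037, adjusted p = 5.9e-05). Impdh1, the paralog of Impdh2, was at 68.5, 72.0 and 69.4 CPM in shFam172a and 64.7, 63.7 and 65.3 CPM in shCtrl (0.12 ± 0.045, adjusted p = 0.036), a call lost under 8 of 16 other settings. Exons of Atr and Impdh2 also overlap genes on the opposite strand. Impdh1 lay above and Impdh2 below their shCtrl levels in all 3 knockdown libraries.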

How the data were processed

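Raw counts of read pairs per gene symbol were deposited by the authors without normalization. Per the submitters' processing notes, HISAT2 2.0.5, HTSeq and mm10 were used. For the counting, annotation and strand setting were not given in the sources used here. Another 5 rows, which name no gene, 33.5% to 37.6% of pairs per library, entered neither the library sizes nor the tests. No pair of libraries agreed within sampling noise (chi-square per degree of freedom of 1.61 to 2.84 within groups), and each was treated as 1 sample. This does not show that the libraries came from separate infections.

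Genes were filtered with filterByExpr, which left 12820 of 18128, given TMM factors and tested by the quasi-likelihood method of edgeR 4.0.16 (glmQLFit with robust, glmQLFTest) under R 4.3.3, group as the sole term, two-sided. The SE is the size of the log2 fold change divided by the square root of F. The procedure was also run on simulated counts with known changes, which checks the code and does not bear on the calls in these data. The alternatives were RLE and upper quartile scaling, other filters, DESeq2 1.42.0, limma-voom (limma 3.58.1), counts thinned to the smallest library, a replicate block, a correction for GC and exon length, and each library left out.

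Exon length, GC and overlaps came from GENCODE M21 (GRCm38), matched to 98.5% of symbols, and promoters from RefSeq. The 53 genes, their roles, the further genes and the motifs were chosen with earlier results of these data known. Values per library are given for the 10 largest called changes and the largest and smallest of each role, and for others chosen after their values were seen. Subunit pairs were also defined after the data were seen, all pairs in each complex were counted, and the share over all pairs of tested genes was added later. The values of 1 further gene are not reported here.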

Additional observations from a re-analysis of the deposited data

How the results depend on the processing

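The 53 genes had 31 to 37 calls in the lower direction and 0 in the higher direction under all 16 alternatives, and their median log2 fold change lay between -0.20 and -0.16. With a single library left out, the lower calls were 32 to 37. The 31 at the low end came from DESeq2 and from counts thinned to the smallest library. Of the 35 genes called lower, 31 kept the call under every alternative, while Orc4, Cdc7, Gins4 and Pold3 lost it under 8, 5, 13 and 15 of them. Of the 18 not called, 7 gained a call under at least 1 alternative. Signs of genes that were not called turned for Orc5 under 4 alternatives (up to 0.0313), Orc1 without shCtrl replicate 3 (range without 1 library -0.0828 to 0.0161), Pold1 without shFam172a replicate 2 or shCtrl replicate 2 (-0.063 to 0.0191), Chaf1a without shCtrl replicate 2 (-0.0475 to 0.0197), and Rfc3 without shFam172a replicate 3 or shCtrl replicate 2 (-0.0903 to 0.0294), with the GC and length correction (0.0247) and with that correction in the blocked fit (0.0272); the cause was not tested. Of the further replication genes, 2 were called higher in the test as reported and 1 with DESeq2, with the GC and length correction, with that correction in the blocked fit, and in 3 of the 6 fits without 1 library (range 1 to 3). All genes called numbered 4627, and 3532 to 4657 under the alternatives. Same-numbered replicates did not deviate together (correlations of -0.0054, -0.0038 and -0.0096), so no pairing by number was seen. This cannot show that same-numbered samples were handled apart. With the replicate block 34 of the 53 were called lower and 4468 genes in all. Depth limits low genes most in shCtrl, but each of the 53 had 180 counts or more in every library.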
